A study of Mus musculus with 4 samples.

Results

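The genes described here are 35 mitosis genes of the mouse, the regulators, motors and chromosome proteins that carry a cell through division. They were taken as a list of symbols by function and were found through their Ensembl identifiers among the 28765 genes of the deposited table. All 35 were present, and all 35 passed the filter of a mean of at least 1 FPKM (a read density per gene length and library total), which left 12940 genes to compare. RNA-seq had been done on NTD brain, control brain, NTD spine and control spine from CD-1 embryos of the mouse aged E9.5, an age at which the neural tube is closing.

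NTD stands for neural tube defects. NTD brain and NTD spine came from embryos of CD-1 parents on a low-folate diet for over 8 weeks, whose mothers were injected with methotrexate (MTX), an inhibitor of folate metabolism, at 1.5 mg/kg on E7.5. Embryos were collected as NTD when the defect could be seen under the microscope. Control brain and control spine are called controls in the labels, which repeat for them the same protocol text, so whether control mothers had the diet or an injection is not stated. There was 1 library per group. No difference between 2 libraries therefore has a replicate check, and treatment, mother and litter cannot be told apart. The intervals given below cover the counting of reads only. The labels do not say how many embryos went into a library or whether brain and spine came from the same animals.

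Entry into mitosis is driven by Cdk1 bound to a B-type cyclin, once Cdc25 phosphatases have removed inhibitory phosphates from Cdk1. Chromosomes are then attached to the spindle under the watch of the spindle checkpoint, which holds back the anaphase-promoting complex (APC/C) until every kinetochore is attached. Most of these genes are transcribed late in the cell cycle, and in the neural tube of this age they are expressed by dividing neuroepithelial cells, while newborn neurons have left the cycle.

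CHR and CCAAT letters are known from promoters of cell cycle genes. The CHR (cell cycle genes homology region) is bound by the MuvB complexes, with B-Myb or as DREAM, and CCAAT letters are bound by NF-Y. Promoter windows from RefSeq (GRCm38.p6), 250 bases before to 50 after the start, were found for 28 of the 35 genes, in 30 windows. Ccna2, Cdc25c, Aurkb, Kif20a, Incenp, Tpx2 and Foxm1 were not matched in that table. The 9 windows below, cut to 120 bases before and 30 after the start, are shown because the results turn on these genes: Cdk1 and Ccnb2 at the centre of mitotic entry, Bub1 and Ttk higher in NTD, Cdc20, Cenpa and Cdc25b lower in NTD, and Nusap1 and Nek2 with the brain and spine levels farthest apart besides Cdc25b. Capitals mark CHR letters (TTTGAA or TTTAAA, also read as TTCAAA from the other strand) and CCAAT letters (ATTGG from the other strand).
Cdk1 (chr10:69352883-69353032, minus strand): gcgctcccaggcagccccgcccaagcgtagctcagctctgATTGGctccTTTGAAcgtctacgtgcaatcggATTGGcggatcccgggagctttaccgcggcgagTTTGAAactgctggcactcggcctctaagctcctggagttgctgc
Ccnb2 (chr9:70421525-70421674, minus strand): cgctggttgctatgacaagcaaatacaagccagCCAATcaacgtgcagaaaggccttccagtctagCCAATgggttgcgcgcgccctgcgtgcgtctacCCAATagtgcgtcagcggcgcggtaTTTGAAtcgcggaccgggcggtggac
Cdc20 (chr4:118437314-118437463, minus strand): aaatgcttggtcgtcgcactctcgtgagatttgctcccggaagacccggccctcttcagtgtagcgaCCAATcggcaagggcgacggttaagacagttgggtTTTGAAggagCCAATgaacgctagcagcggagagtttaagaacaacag
Bub1 (chr2:127831830-127831979, minus strand): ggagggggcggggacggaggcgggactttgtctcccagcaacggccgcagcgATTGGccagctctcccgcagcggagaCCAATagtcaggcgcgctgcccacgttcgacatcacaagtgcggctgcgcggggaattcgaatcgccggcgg
Ttk (chr9:83834569-83834718, plus strand): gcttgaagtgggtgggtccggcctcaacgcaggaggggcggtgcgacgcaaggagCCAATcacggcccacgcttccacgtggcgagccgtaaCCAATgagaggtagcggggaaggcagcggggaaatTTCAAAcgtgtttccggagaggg
Cenpa (chr5:30666766-30666915, plus strand): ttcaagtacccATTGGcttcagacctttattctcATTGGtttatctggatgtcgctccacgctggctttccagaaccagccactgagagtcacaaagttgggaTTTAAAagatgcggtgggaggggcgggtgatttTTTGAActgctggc
Cdc25b (chr2:131186828-131186977, plus strand): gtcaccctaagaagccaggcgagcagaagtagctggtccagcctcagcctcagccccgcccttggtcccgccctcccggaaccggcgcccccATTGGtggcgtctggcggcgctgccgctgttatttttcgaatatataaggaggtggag
Nusap1 (chr2:119618178-119618327, plus strand): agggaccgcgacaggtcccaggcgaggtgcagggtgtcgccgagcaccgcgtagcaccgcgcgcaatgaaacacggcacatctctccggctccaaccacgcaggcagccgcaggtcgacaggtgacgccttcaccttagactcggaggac
Nek2 (chr1:191821353-191821502, plus strand): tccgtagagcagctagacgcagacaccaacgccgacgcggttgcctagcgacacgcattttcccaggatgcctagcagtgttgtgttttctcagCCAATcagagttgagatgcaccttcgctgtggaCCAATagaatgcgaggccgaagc

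In the whole windows, CHR letters stood in 23 of the 28 matched genes (82.1%), against 30.6% of all 27025 genes in the promoter table and 21.97% of the 9074 compared genes with a window. CCAAT letters also stood in 23 of the 28, against 41.1% of all genes and 43.5% of compared genes. Both were present in 20 of the 28 (71.4%), against 13.4% of all genes and 10.6% of compared genes. No CHR letters were found for Bub1, Cdc25b, Mad2l1, Nek2 or Nusap1, and no CCAAT letters for Anln, Birc5, Kif2c, Mad2l1 or Nusap1. In no window did the CHR and CCAAT letters overlap. These are matches of letters and not measured binding.

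The 4 libraries had between 16272101 and 16911677 reads behind the deposited FPKM. All 35 genes had at least 204 reads in every library. Their levels ran from 2.74 to 146 FPKM in NTD brain, from 2.80 to 169 FPKM in control brain, from 4.84 to 152 FPKM in NTD spine and from 4.03 to 166 FPKM in control spine. Their median lay at the 87.2nd percentile of compared genes in NTD brain, the 86.9th in control brain, the 87.3rd in NTD spine and the 87.2nd in control spine. In each library 33 of the 35 were above the median compared gene. Cdc20 had the highest level of the 35 in every library and Nek2 the lowest.

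**Figure D1:**
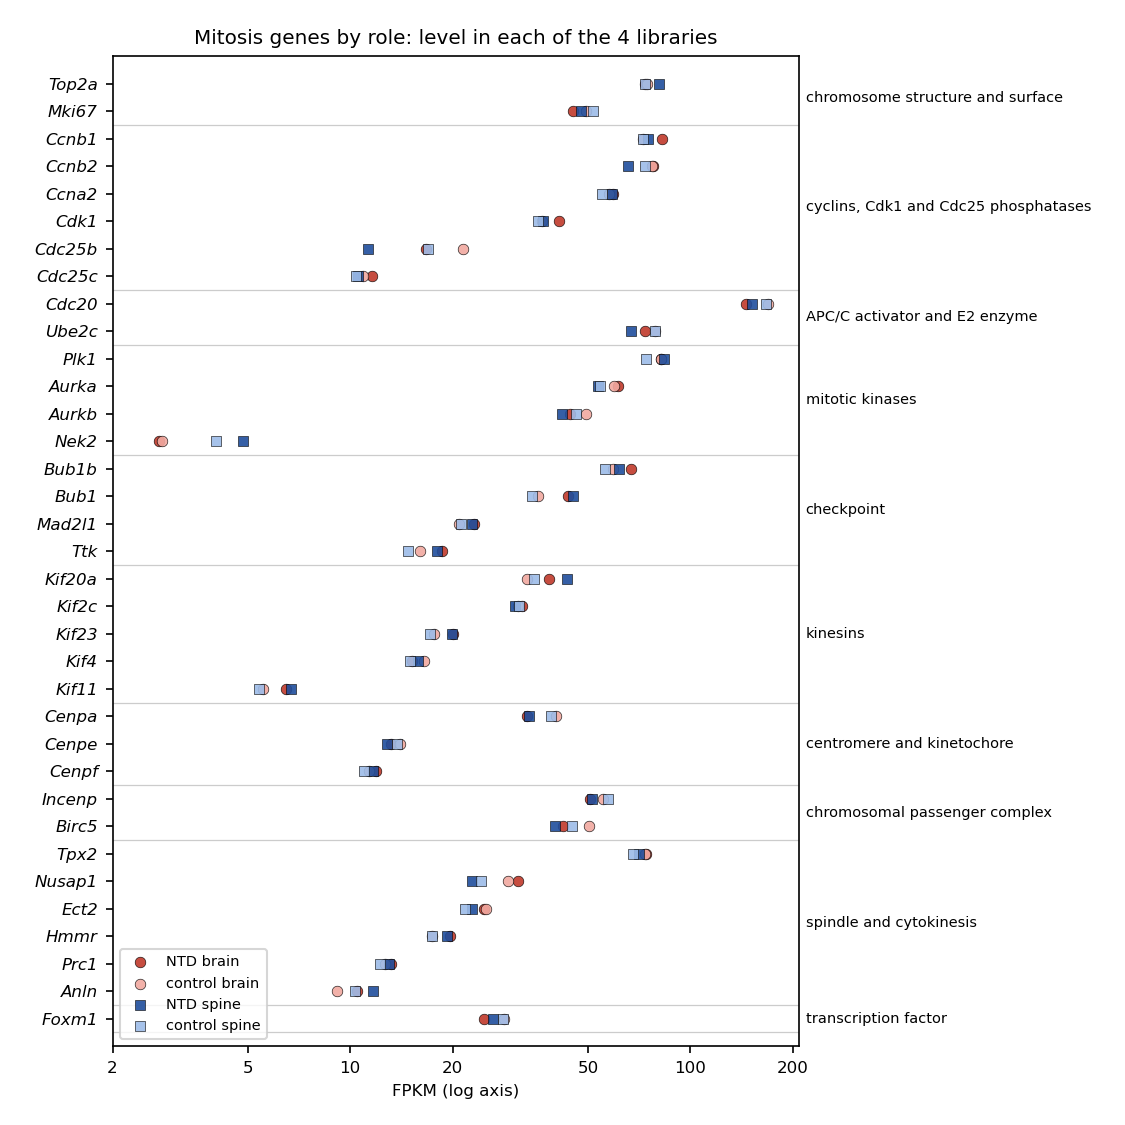
FPKM of the 35 mitosis genes on a log axis, grouped by role, with 1 point per library (circles for brain, squares for spine; dark for NTD, light for control). Most genes have their 4 points close together; Cdc25b and Nek2 spread most, with a highest over lowest level of 1.90 and 1.76.

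Taken as a whole, the mitosis genes were at nearly the same level in NTD and control libraries. Together they had 104776 reads in NTD brain against 107360 in control brain, a ratio per library total of 1.002 (95% interval 0.9936 to 1.0107). In NTD spine they had 104307 reads against 100427 in control spine, a ratio per library total of 1.018 (1.009 to 1.027). In bulk tissue, the share of dividing cells and the RNA per dividing cell cannot be told apart.

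Beneath that sum, single genes differed in both directions. The log2 ratios of (FPKM + 1), NTD brain over control brain, ran from -0.35 for Cdc25b to 0.29 for Bub1, with a median of 0.036 over the 35 and of -0.032 over all compared genes. In spine the ratios ran from -0.55 for Cdc25b to 0.38 for Bub1, with a median of 0.057 over the 35 and of -0.038 over all compared genes. In NTD brain 21 of the 35 were higher than in control brain, against 43.6% of all compared genes. In NTD spine 21 of the 35 were likewise higher than in control spine, against 41.9% of all compared genes.

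Differences were small in size. None of the 35 reached 2-fold on the log2(FPKM + 1) scale, past which lay 0.804% of compared genes as higher and 0.781% as lower in brain, and 0.649% as higher and 0.68% as lower in spine. A log2 ratio of at least 0.32 in size, which is 25% higher or lower by the same factor, was used as a smaller threshold. Past it, none was higher in NTD brain (background 5.06%) and Cdc25b was lower (background 9.34%). In NTD spine Bub1 was higher past 0.32 (background 4.22%) and Cdc25b lower (background 11.1%). The Cdc25b call in brain was lost with a pseudocount of 5, with libraries rescaled by the median ratio, and with adjustment for GC content and length. The Bub1 call in spine was lost with that adjustment, where Plk1 and Kif20a were higher past 0.32. The counting interval of the fold lay above 1 for 12 of the 35 in brain (background 16.1%) and below 1 for 10 (background 25.7%). In spine it lay above 1 for 15 (background 17.2%) and below 1 for 11 (background 26.6%). These genes have more reads than most, so their intervals are narrower than those of the background.

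**Figure D2:**
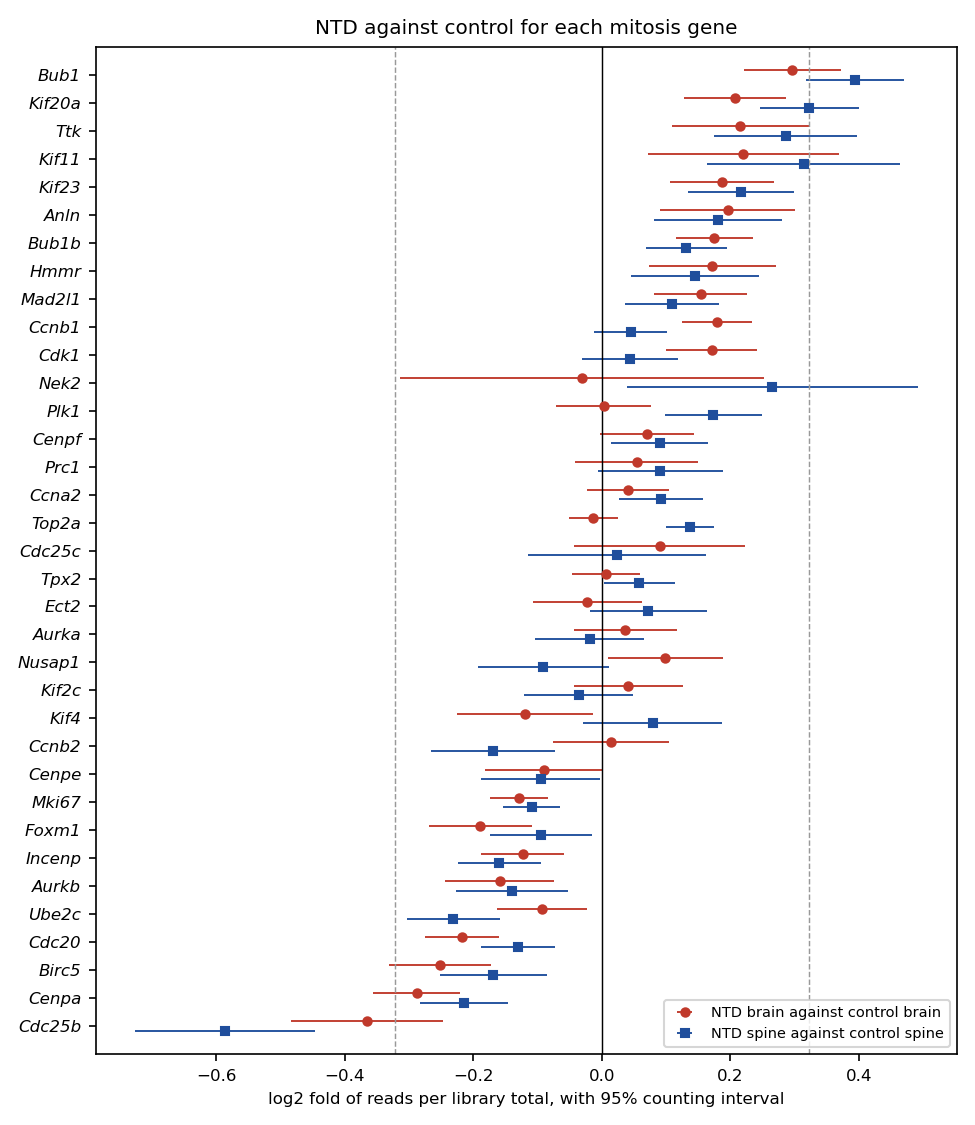
Log2 fold of reads per library total, NTD over control, for each of the 35 mitosis genes in brain (red circles) and spine (blue squares), ordered by the mean of both; bars are 95% counting intervals and dashed lines mark a log2 fold of 0.32 in either direction. Bub1 stands at the top with 1.23-fold in brain and 1.31-fold in spine, and Cdc25b at the bottom in both tissues.

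The 4 spindle checkpoint genes among the 35 were all higher in NTD than in control in both tissues, with every interval above 1. Of compared genes, 26.7% were higher in NTD in both tissues and 7.96% had both intervals above 1. Bub1, a kinase that recruits checkpoint proteins to kinetochores, had 43.7 FPKM in NTD brain against 35.6 in control brain, and 45.1 FPKM in NTD spine against 34.3 in control spine. That is 1.23-fold higher in brain (1.17 to 1.29) and 1.31-fold higher in spine (1.247 to 1.386). Both NTD libraries lay above both control libraries, as they did for 16.5% of compared genes. Bub1 (ENSMUSG00000027379) lies on the minus strand at chr2:127801122-127831865. Ttk, the Mps1 kinase that starts the checkpoint signal, had 18.7 FPKM in NTD brain against 16.1 in control brain, and 18.0 FPKM in NTD spine against 14.7 in control spine. Its fold was 1.16 in brain (1.08 to 1.251) and 1.22 in spine (1.13 to 1.32), again with no overlap between NTD and control libraries. Bub1b, which encodes BubR1, an APC/C inhibitor, had 66.9 FPKM in NTD brain against 59.3 in control brain, and 61.6 FPKM in NTD spine against 56.2 in control spine. Mad2l1, which encodes the checkpoint protein Mad2, had 23.2 FPKM in NTD brain against 20.8 in control brain, and 22.8 FPKM in NTD spine against 21.1 in control spine. The NTD libraries were the higher ones for both genes, with folds between 1.08 and 1.13. Summed over the 4 checkpoint genes, the level was 152 FPKM in NTD brain against 132 in control brain, and 147 FPKM in NTD spine against 126 in control spine.

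Cdc20 and Ube2c were lower in NTD in both tissues (background 41.1%). Cdc20, the APC/C activator that the checkpoint holds in check, had 146 FPKM in NTD brain against 169 in control brain, and 152 FPKM in NTD spine against 166 in control spine. It was 1.16-fold lower in NTD brain (1.12 to 1.21) and 1.09-fold lower in NTD spine (1.05 to 1.14), although in spine the sign turned when ratios were adjusted for GC content and length. Ube2c, the ubiquitin-conjugating enzyme of the APC/C, had 73.8 FPKM in NTD brain against 78.7 in control brain, and 66.8 FPKM in NTD spine against 78.4 in control spine. It was 1.07-fold lower in NTD brain (1.02 to 1.12) and 1.17-fold lower in NTD spine (1.12 to 1.23). For Cdc20 and Ube2c alike, both NTD libraries lay below both control libraries (background 26.2%). Of the Ube2c exon bases, 22.8% overlap Tnnc2 on the opposite strand, but Tnnc2 had at most 0.0759 FPKM in any library.

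Of the cyclins, Cdk1 and the Cdc25 phosphatases, Cdc25b stood apart. Cdc25b, a phosphatase that activates Cdk1 at mitotic entry, had 16.7 FPKM in NTD brain against 21.5 in control brain, and 11.3 FPKM in NTD spine against 16.9 in control spine. It was 1.29-fold lower in NTD brain (1.19 to 1.40) and 1.50-fold lower in NTD spine (1.36 to 1.65). Both NTD libraries were below both control libraries (background 26.2%), with NTD brain and control spine nearly level. Cdc25b (ENSMUSG00000027330) lies on the plus strand at chr2:131186949-131198497. Cdc25c, a phosphatase with the same substrate, had 11.6 FPKM in NTD brain against 10.9 in control brain, and 10.6 FPKM in NTD spine against 10.4 in control spine. Its folds of 1.06 in brain (0.970 to 1.17) and 1.02 in spine (0.923 to 1.12) were not distinguishable from 1 at this depth.

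Cdk1, the mitotic kinase itself, had 41.2 FPKM in NTD brain against 36.6 in control brain, and 36.8 FPKM in NTD spine against 35.6 in control spine. The difference was 1.13-fold in brain (1.07 to 1.18), while the spine interval of 0.979 to 1.09 included 1. Ccnb1, its main mitotic cyclin, had 82.4 FPKM in NTD brain against 72.8 in control brain, and 74.9 FPKM in NTD spine against 72.7 in control spine. Ccnb1 thus resembled Cdk1, with 1.13-fold in brain (1.09 to 1.18) and an interval that included 1 in spine (0.992 to 1.07). Near-identical copies could share reads with Ccnb1: Ccnb1-ps is 99.2% identical over 1287 bases and had 10.001 FPKM in NTD brain, 8.45 in control brain, 7.77 in NTD spine and 7.26 in control spine. Ccnb2, the other B-type cyclin, had 77.7 FPKM in NTD brain against 76.9 in control brain, and 65.4 FPKM in NTD spine against 73.5 in control spine. It was 1.12-fold lower in NTD spine (1.05 to 1.20), with a brain interval that included 1 (0.948 to 1.08). Ccna2, the cyclin of S phase and early mitosis, had folds of 1.03 in brain (0.984 to 1.08) and 1.07 in spine (1.02 to 1.11), and 12.5% of its exon bases overlap Exosc9 on the opposite strand. No source at hand states whether reads were counted by strand, so reads of overlapping genes cannot be told apart.

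Of the 5 Kif kinesins, motor proteins of the spindle, 3 were higher in NTD in both tissues with intervals above 1 (background 7.96%). Cenpe, a motor grouped below with the kinetochore genes, was lower in both (background 41.1%). Its log2 ratios of (FPKM + 1) were -0.084 in brain and -0.088 in spine. Kif20a, a motor of the central spindle in cytokinesis, had 38.3 FPKM in NTD brain against 33.2 in control brain, and 43.4 FPKM in NTD spine against 34.7 in control spine. It was 1.15-fold higher in brain (1.09 to 1.22) and 1.251-fold higher in spine (1.19 to 1.32), where its log2 ratio of (FPKM + 1) lay just under the threshold. Cdc23 overlaps 29.3% of the Kif20a exon bases on the opposite strand and had 17.9 FPKM in NTD brain against 17.2 in control brain, and 17.7 FPKM in NTD spine against 16.4 in control spine. Kif11, the motor Eg5 that pushes spindle poles apart, had 6.47 FPKM in NTD brain against 5.56 in control brain, and 6.72 FPKM in NTD spine against 5.40 in control spine. Kif23, a motor of the centralspindlin complex, had 20.05 FPKM in NTD brain against 17.6 in control brain, and 19.9 FPKM in NTD spine against 17.2 in control spine. Both NTD libraries lay above both control libraries for Kif20a, Kif11 and Kif23 (background 16.5%). Kif11 was 1.16-fold higher in brain (1.05 to 1.29) and 1.24-fold higher in spine (1.12 to 1.38). Kif23 was 1.14-fold higher in brain (1.08 to 1.20) and 1.16-fold higher in spine (1.10 to 1.23). Kif4 and Kif2c, a chromosome-bound motor and a microtubule depolymerase, went opposite ways in the tissues. Kif4 was 1.09-fold lower in NTD brain (1.01 to 1.17) with a spine interval of 0.980 to 1.14, and both Kif2c intervals included 1.

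Among the 6 spindle and cytokinesis genes, Anln and Hmmr were higher in NTD in both tissues with intervals above 1 (background 7.96%). Anln, which encodes the ring scaffold anillin, had 10.5 FPKM in NTD brain against 9.15 in control brain, and 11.7 FPKM in NTD spine against 10.3 in control spine. Hmmr, a microtubule-binding protein of the spindle, had 19.6 FPKM in NTD brain against 17.4 in control brain, and 19.3 FPKM in NTD spine against 17.4 in control spine. The NTD libraries were again the higher pair (background 16.5%). Folds were 1.15 for Anln in brain (1.07 to 1.23) and 1.13 in spine (1.06 to 1.21). For Hmmr they were 1.13 in brain (1.05 to 1.21) and 1.11 in spine (1.03 to 1.19). Prc1, a bundler of central spindle microtubules, and Tpx2, an activator of Aurora A, differed by at most 1.07-fold. Ect2, the exchange factor that turns on RhoA at the cleavage furrow, had intervals that included 1 in both tissues. Nusap1, a spindle protein, had a fold of 1.07 in brain (1.007 to 1.14) and a spine interval that included 1.

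The chromosomal passenger complex corrects faulty attachments. Aurkb, Birc5 and Incenp of this complex were lower in NTD in both tissues with every interval below 1 (background 13.8%). Aurkb, its kinase, had 44.3 FPKM in NTD brain against 49.5 in control brain, and 41.9 FPKM in NTD spine against 46.2 in control spine. Birc5, which encodes survivin, had 42.1 FPKM in NTD brain against 50.2 in control brain, and 39.9 FPKM in NTD spine against 44.9 in control spine. Incenp, the scaffold, had 50.6 FPKM in NTD brain against 55.2 in control brain, and 51.4 FPKM in NTD spine against 57.4 in control spine. Both NTD libraries were below both control libraries for each of these genes (background 26.2%). The folds lay between 1.09 lower for Incenp in brain (1.04 to 1.14) and 1.19 lower for Birc5 in brain (1.13 to 1.26); Incenp turned sign in brain after adjustment for GC content and length.

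Of the centromere and kinetochore genes, Cenpa, the histone variant that marks centromeres, had 33.0 FPKM in NTD brain against 40.3 in control brain, and 33.6 FPKM in NTD spine against 38.9 in control spine. It was 1.22-fold lower in NTD brain (1.16 to 1.28) and 1.16-fold lower in NTD spine (1.11 to 1.22). The groups did not overlap (background 26.2%). Cenpe, a kinetochore motor, and Cenpf, a kinetochore protein, were within 1.07-fold of control in both tissues. Cenpe was lower in NTD in both, 1.07-fold in spine (1.002 to 1.14), with a brain interval that included 1. Mki67, the proliferation marker Ki-67 that coats mitotic chromosomes, had 45.1 FPKM in NTD brain against 49.3 in control brain, and 47.8 FPKM in NTD spine against 51.6 in control spine. It was 1.09-fold lower in NTD brain (1.06 to 1.13) and 1.08-fold lower in NTD spine (1.05 to 1.11). Top2a, the topoisomerase that disentangles chromosomes, had 73.6 FPKM in NTD brain against 74.3 in control brain, and 80.9 FPKM in NTD spine against 73.5 in control spine. NTD spine stood above the other 3 libraries, 1.10-fold over control spine (1.07 to 1.13).

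Plk1, Aurka and Nek2 are the other kinases, and Foxm1 the transcription factor. Plk1, a kinase of mitotic entry and spindle assembly, had 82.1 FPKM in NTD brain against 82.0 in control brain, and 83.7 FPKM in NTD spine against 74.3 in control spine. Control spine was the low library, and the spine fold was 1.13 (1.07 to 1.19). After adjustment for GC content and length its log2 ratio in spine was 0.34, against 0.17 unadjusted. Gm44985, on the opposite strand, overlaps 7.09% of the Plk1 exon bases. Aurka, the kinase of spindle poles, had intervals that included 1 in both tissues. Nek2, a kinase of centrosome separation, was 1.20-fold higher in NTD spine (1.03 to 1.41), with a brain interval that included 1. Foxm1, a transcription factor of late cell cycle genes, had 24.8 FPKM in NTD brain against 28.2 in control brain, and 26.4 FPKM in NTD spine against 28.2 in control spine. It was 1.14-fold lower in NTD brain (1.08 to 1.21) and 1.07-fold lower in NTD spine (1.011 to 1.13), though in spine the sign turned after adjustment for GC content and length.

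Brain and spine gave like ratios, from 2 pairs of libraries that share none. Over the 35 genes the NTD log2 ratios in brain and spine had a Pearson's r of 0.82 and a Spearman's rho of 0.76, against 0.40 and 0.46 over all compared genes. These are descriptions across genes, which are not independent replicates. The 35 also have more reads than most, so their ratios and intervals carry less counting error than those of the background. Of the 35, 17 were higher in NTD in both tissues (background 26.7%), 10 were lower in both (background 41.1%) and 8 had opposite signs (background 32%). Intervals above 1 in both tissues were found for 9 genes, 25.7% of the 35 against 7.96% of compared genes: Bub1, Bub1b, Ttk, Mad2l1, Kif11, Kif20a, Kif23, Anln and Hmmr. Intervals below 1 in both were found for 9 others, against 13.8% of compared genes: Mki67, Cdc20, Ube2c, Cdc25b, Aurkb, Birc5, Incenp, Cenpa and Foxm1. Both NTD libraries lay above both control libraries for 15 of the 35 (background 16.5%) and below both for 10 (background 26.2%).

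**Figure D3:**
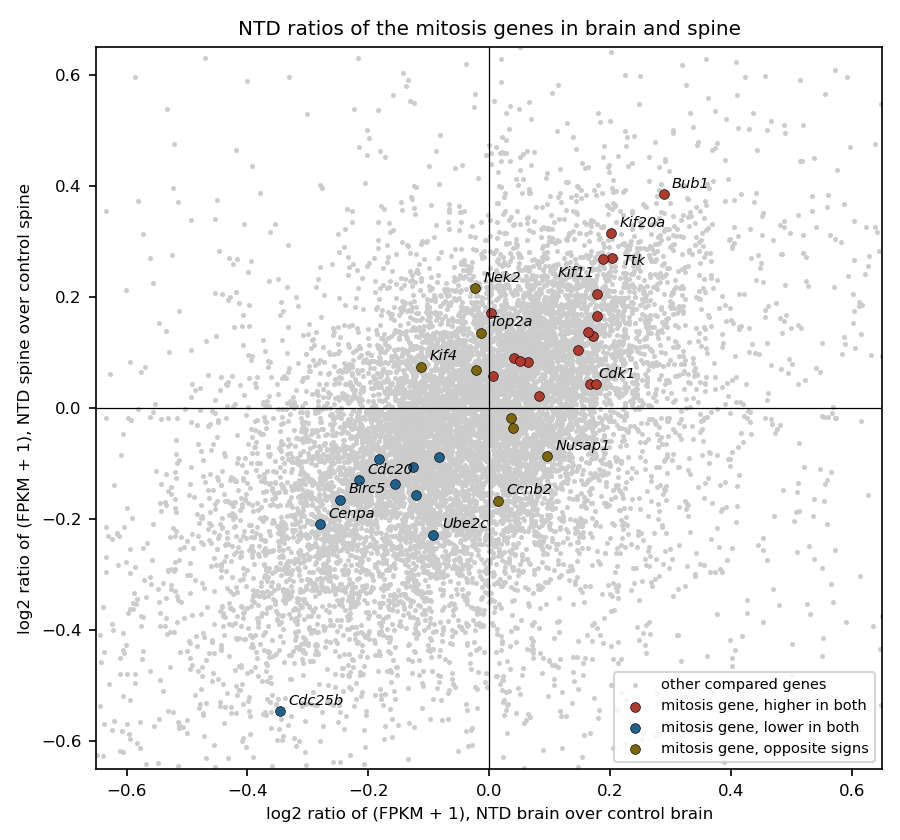
Log2 ratio of (FPKM + 1), NTD over control, in brain (x axis) and spine (y axis) for the 35 mitosis genes (coloured by sign) over the other compared genes (grey; those beyond the axes are not drawn). The coloured points run along the diagonal, with 17 in the upper right, 10 in the lower left and 8 in the other quadrants.

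CHR and CCAAT letters, searched as above without TTCGAA, were counted again by the direction of the NTD ratios. CHR letters stood in 11 of 13 matched genes higher in both tissues, 6 of 7 lower in both and 6 of 8 with opposite signs. The counts for CCAAT letters were the same, 11 of 13, 6 of 7 and 6 of 8.

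With brain and spine standing in for replicates, NTD was tested against control in limma over all 4 libraries with tissue as a block, which leaves 1 residual degree of freedom per gene. The p-values then set the mean NTD difference against a spread, and not against embryos as replicates. That spread is only how far brain and spine differ in their NTD difference, drawn by eBayes towards other genes (3.41 prior degrees of freedom). None of the 35 passed an adjusted p of 0.05 (limma, Benjamini-Hochberg over 12940 genes), and 0.0773% of compared genes passed as higher and 0.0696% as lower. The smallest adjusted p among the 35 was 0.111 in limma, for Bub1 (log2 difference 0.34, SE 0.06) and for Cdc25b (log2 difference -0.45, SE 0.07). At an unadjusted p under 0.05, limma gave 15 of the 35 (8 higher, 7 lower), against 21.9% of compared genes. With voom weights on recovered reads, 8 of the 35 passed: Bub1, Kif20a, Ttk, Kif11 and Kif23 as higher (background 3.87%) and Cdc25b, Cenpa and Birc5 as lower (background 9.09%). In that voom fit the prior had 29.7 degrees of freedom against 1 residual, so the spread came mostly from other genes. Over the alternatives the adjusted p in limma ran from 0.000565 to 0.422 for Bub1 and from 0.000199 to 0.422 for Cdc25b.

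The direction of the ratio went with base composition. GC content of the longest transcript had a median of 44.2% in the 17 genes higher in both tissues, 53.3% in the 10 lower in both and 48.7% in the 8 with opposite signs. Across the 35, GC content and the NTD ratio had a Spearman's rho of -0.55 in brain and -0.46 in spine, against -0.34 and -0.36 over all compared genes. The libraries and the sequencing steps are shared by all these points. After ratios were adjusted for GC content and length, by taking off the median of like genes, rho between GC content and the ratio was -0.31 in brain and -0.11 in spine. The ratios in brain and spine then had a rho of 0.68 over the 35. Adjusted, 15 of the 17 genes stayed higher in both tissues and 7 of the 10 stayed lower in both. Bub1 and the other checkpoint genes, the 3 kinesins named above, Cenpa, Birc5, Aurkb, Ube2c, Mki67 and Cdc25b kept their signs. Several of these values became smaller by over 1.5 times. Mad2l1 had adjusted log2 ratios of 0.071 in brain and 0.016 in spine, against 0.15 and 0.10 unadjusted. Aurkb in spine had -0.057 adjusted against -0.14, Ube2c -0.032 against -0.092 in brain and -0.13 against -0.23 in spine, and Mki67 in brain -0.053 against -0.13. Mki67 in spine became larger, at -0.16 adjusted against -0.11.

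**Figure D4:**
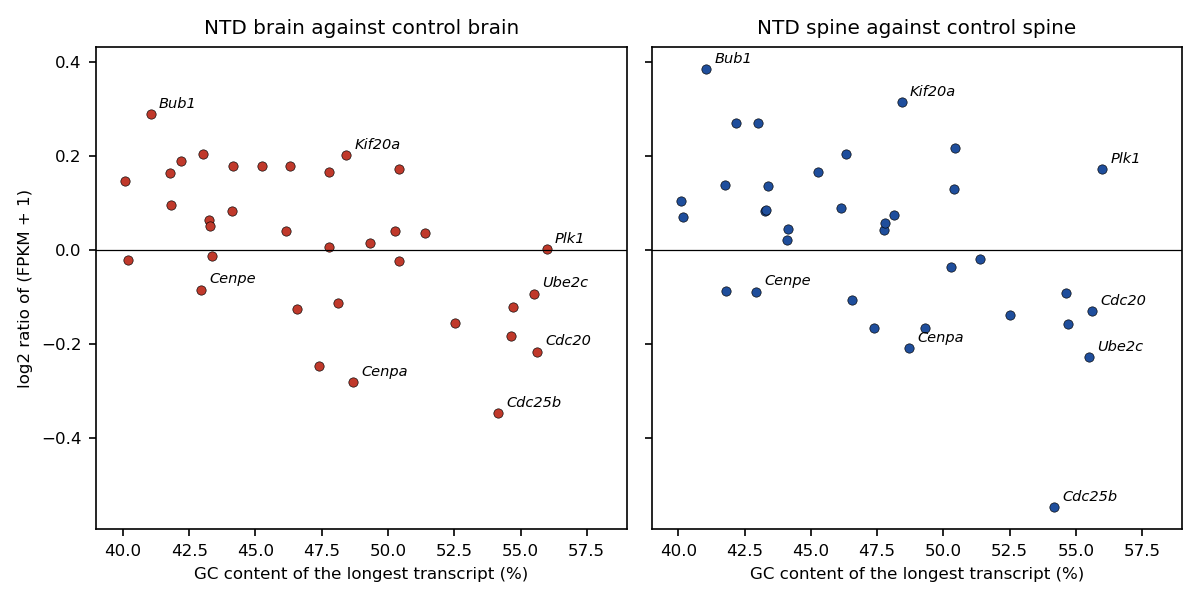
GC content of the longest transcript (x axis, percent) and log2 ratio of (FPKM + 1), NTD over control (y axis), for the 35 mitosis genes in brain (left panel) and spine (right panel). Low-GC genes such as Bub1 lie mostly above 0 and high-GC genes such as Cdc20, Ube2c and Cdc25b below it; Plk1, the highest in GC at 56.0%, is an exception in spine.

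Between the tissues, most of the 35 were slightly higher in brain than in spine. In NTD embryos 22 of the 35 were higher in brain (background 51.2%), with a median log2 ratio of 0.024 against 0.0065 over all compared genes. In controls 27 of the 35 were higher in brain (background 51.4%), with a median log2 ratio of 0.047 against 0.0053. Summed over the 35, reads per library total were 1.013-fold higher in NTD brain than in NTD spine (1.004 to 1.021), and 1.029-fold higher in control brain than in control spine (1.02 to 1.04). In 19 genes brain was higher in both conditions (background 35.2%), and in 5 it was lower in both (background 32.6%).

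**Figure D5:**
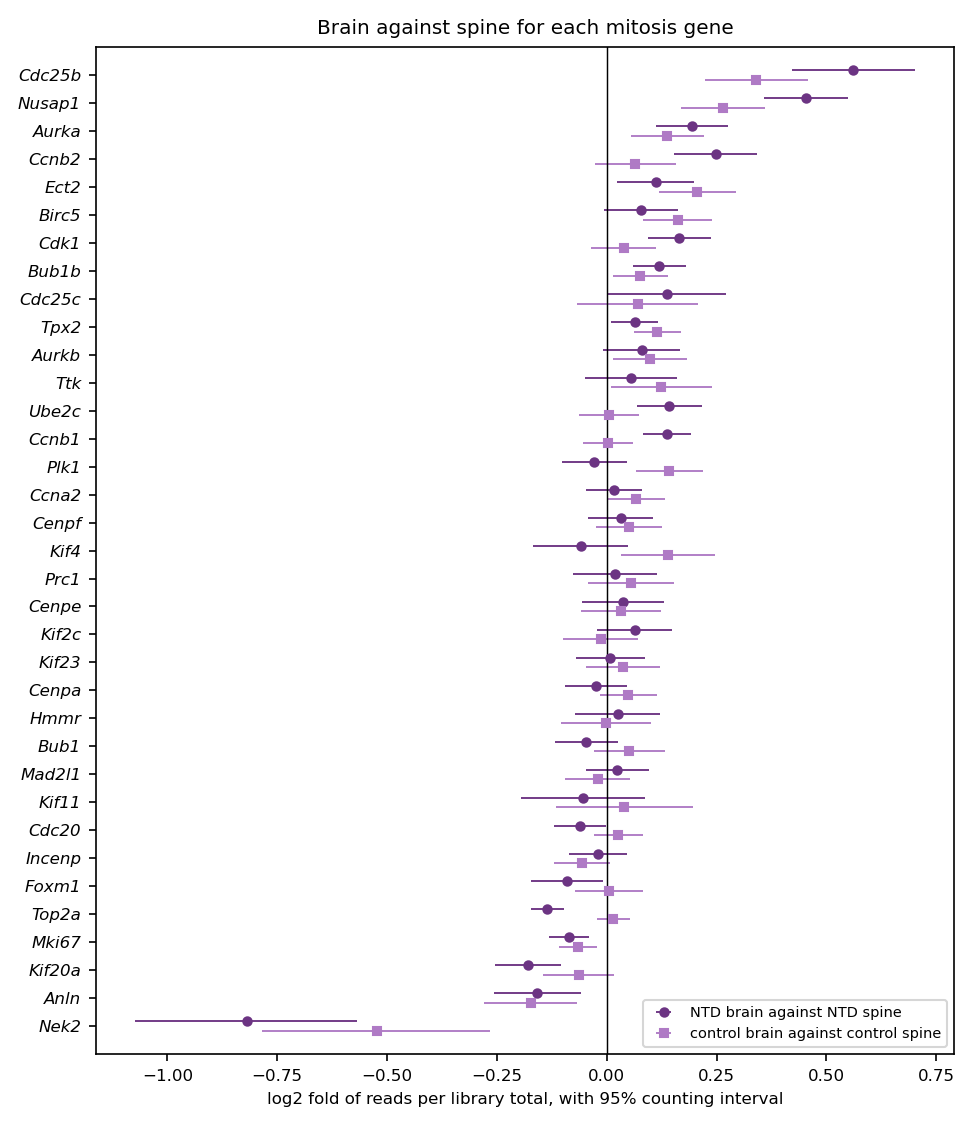
Log2 fold of reads per library total, brain over spine, for each mitosis gene in NTD embryos (dark circles) and controls (light squares), with 95% counting intervals. Cdc25b and Nusap1 lie farthest to the right and Nek2 farthest to the left in both conditions.

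Cdc25b, Nusap1 and Nek2 had the widest differences between the tissues. Cdc25b was 1.48-fold higher in NTD brain than in NTD spine (1.34 to 1.63) and 1.27-fold higher in control brain than in control spine (1.17 to 1.37). Nusap1 had 31.2 FPKM in NTD brain against 22.8 in NTD spine, and 29.2 FPKM in control brain against 24.3 in control spine. Brain was thus the higher tissue, 1.37-fold in NTD (1.28 to 1.46) and 1.20-fold in controls (1.12 to 1.28). Nusap1 (ENSMUSG00000027306) lies on the plus strand at chr2:119618298-119651244. Nek2 had 2.74 FPKM in NTD brain against 4.84 in NTD spine, and 2.80 FPKM in control brain against 4.03 in control spine. Here both brain libraries were the lower ones (background 21.2%), 1.76-fold in NTD (1.48 to 2.11) and 1.44-fold in controls (1.20 to 1.72). Nek2 (ENSMUSG00000026622) lies on the plus strand at chr1:191821444-191833050.

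On the log2(FPKM + 1) scale, Cdc25b and Nusap1 were higher past 0.32 in NTD brain than in NTD spine (background 8.5%) and Nek2 lower (background 10.4%). In controls Cdc25b was higher past 0.32 in brain (background 7.53%) and Nek2 lower (background 10.6%). None reached 2-fold, past which lay 1.02% of compared genes as higher and 2.13% as lower in NTD embryos, and 0.981% and 2.38% in controls. The interval of the fold, brain over spine, lay above 1 in both conditions for 6 genes (background 11%), namely Cdc25b, Nusap1, Aurka, Ect2, Bub1b and Tpx2. It lay below 1 in both for Nek2, Anln and Mki67 (background 12%).

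With condition as a block, limma called Cdc25b higher in brain, with a log2 difference of 0.42 (SE 0.07) and an adjusted p of 0.0496, where 2.58% of compared genes passed as higher. None of the 35 passed as lower, against 4.09% of compared genes. Nusap1 had a log2 difference of 0.35 (SE 0.07) and Nek2 one of -0.52 (SE 0.10), with adjusted p of 0.0654 and 0.068 in limma. The Cdc25b call was lost in limma without a filter (adjusted p 0.287) and without the trend in the variances (adjusted p 0.103). With voom weights, where the prior again had 29.7 degrees of freedom, Cdc25b and Nusap1 passed as higher in brain (background 7.14%). Nek2 passed there as lower (background 9.83%). Over the alternatives the adjusted p of Cdc25b in limma ran from 7.75e-05 to 0.287.

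Other genes of division and the cell cycle were read from 8 lists. Over all compared genes, 43.6% were higher in NTD brain and 41.9% in NTD spine, with medians of -0.032 and -0.038. A log2 ratio of 0.32 or higher was reached by 5.06% in NTD brain and 4.22% in NTD spine. One of -0.32 or lower was reached by 9.34% and 11.1%. Cohesin, condensin and separase genes had a median log2 ratio of 0.047 in NTD brain over control brain and 0.11 in NTD spine over control spine, with 17 and 19 of 23 higher. Smc4, a condensin subunit, had 64.0 FPKM in NTD brain against 54.4 in control brain, and 62.7 FPKM in NTD spine against 51.1 in control spine. Smc3, a cohesin subunit, had 47.0 FPKM in NTD brain against 41.4 in control brain, and 49.9 FPKM in NTD spine against 39.4 in control spine. Smc3 was past 0.32 in spine, alone of these 23. Further kinetochore and checkpoint genes had medians of 0.033 in brain and 0.040 in spine, with 25 and 24 of 34 higher. Zwilch, of the RZZ complex that brings the checkpoint to kinetochores, had 15.2 FPKM in NTD brain against 11.3 in control brain, and 14.4 FPKM in NTD spine against 11.5 in control spine. It was the only one of the 34 past 0.32 in brain, and none passed in spine.

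Further spindle, centrosome and cytokinesis genes had medians of -0.010 in brain and 0.059 in spine, with 18 and 23 of 37 higher, and Haus2, of the augmin complex, was past 0.32 in spine. The APC/C subunits and their E2 enzymes had medians of 0.0037 in brain and -0.065 in spine, with 9 and 5 of 17 higher and none past 0.32. Anapc11, its RING subunit, was the lowest of them in both tissues, with 10.7 FPKM in NTD brain against 12.9 in control brain, and 10.2 FPKM in NTD spine against 12.8 in control spine.

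S phase replication genes had medians of 0.079 in brain and 0.13 in spine, with 15 of 19 higher in each, against 43.6% and 41.9% of all compared genes. Mcm4, of the replicative helicase, had 113 FPKM in NTD brain against 96.2 in control brain, and 112 FPKM in NTD spine against 85.1 in control spine. It was past 0.32 in spine, where the fold was 1.32 (1.27 to 1.37). The G1 and S phase regulators had medians of -0.032 in brain and -0.041 in spine, close to those of all compared genes, with 2 and 4 of 15 higher. E2f2, a transcription factor of S phase entry, was 1.31-fold lower in NTD brain (1.14 to 1.50), and Ccne2, which encodes a cyclin E, was 1.34-fold higher in NTD spine (1.21 to 1.49).

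Cell cycle inhibitors and exit genes had medians of -0.13 in brain and -0.12 in spine, with 11 and 10 of 15 lower. Of all compared genes, 56.4% were lower in NTD brain and 58.0% in NTD spine. Cdkn1c, which encodes the Cdk inhibitor p57, had 25.2 FPKM in NTD brain against 35.4 in control brain, and 42.7 FPKM in NTD spine against 60.1 in control spine. It was 1.41-fold lower in both, with intervals of 1.29 to 1.54 in brain and 1.31 to 1.50 in spine. Gadd45g, a growth arrest gene, had 15.8 FPKM in NTD brain against 20.8 in control brain, and 17.4 FPKM in NTD spine against 23.4 in control spine. Gadd45g was lower past -0.32 in both tissues, as was Cdkn1c (background 9.34% in brain and 11.1% in spine). Btg2, an antiproliferative gene, and Gadd45b were past it in brain, and Cdkn2d, which encodes the Cdk4 and Cdk6 inhibitor p19, in spine. Gadd45a went the other way, with 5.33 FPKM in NTD brain against 4.16 in control brain, and 6.62 FPKM in NTD spine against 4.67 in control spine, past 0.32 in spine.

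The subunits of DREAM, MuvB, B-Myb and NF-Y, which bind the promoter letters shown above, had medians of -0.13 in brain and 0.038 in spine. Of the 13, 4 were higher in NTD brain and 7 in NTD spine, against 43.6% and 41.9% of all compared genes. Mybl2, which encodes B-Myb, had 21.8 FPKM in NTD brain against 25.5 in control brain, and 20.7 FPKM in NTD spine against 23.8 in control spine. Both NTD libraries were below both control libraries (background 26.2%). Lin37, a MuvB subunit, was lower past -0.32 in brain, and Nfya, an NF-Y subunit, higher past 0.32 in spine.

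Markers of other cells also differed between the same libraries. Counts below cover markers past the filter, and sums cover all listed markers. Past the filter were 13 of 14 early neuron, 9 of 10 heart muscle and 6 of 8 endoderm markers. Of all compared genes, 56.4% were lower and 43.6% higher in NTD brain, and 58.0% lower and 41.9% higher in NTD spine. Early neuron markers were lower in 13 of 13 in NTD brain and 12 of 13 in NTD spine, and summed to 150 FPKM in NTD brain against 223 in control brain, and to 80.0 FPKM in NTD spine against 138 in control spine. Neural progenitor markers, which mark dividing neuroepithelium, summed to 405 FPKM in NTD brain against 486 in control brain, and to 303 FPKM in NTD spine against 350 in control spine. They were lower in 10 of 10 in NTD brain and 9 of 10 in NTD spine, and none was at 0 in any library. All 10 were higher in control brain than in control spine (background 51.4%). In NTD embryos 9 were higher in brain than in spine (background 51.2%) and 1 was lower. Heart muscle markers were higher in 9 of 9 in NTD brain, with a sum of 208 FPKM against 50.2 in control brain, and lower in 9 of 9 in NTD spine, with 492 FPKM against 735 in control spine. Heart muscle markers were thus higher in the spine libraries than in the brain libraries.

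Primitive erythroid markers were higher in 6 of 10 in NTD brain (background 43.6%), with a sum of 4414 FPKM against 4071 in control brain. In NTD spine 10 of 10 were lower (background 58.0%), with 3328 FPKM against 6321 in control spine. Endothelial markers summed to 63.7 FPKM in NTD brain against 67.1 in control brain, and to 79.4 FPKM in NTD spine against 79.0 in control spine. Endoderm markers summed to 2.82 FPKM in NTD brain against 2.72 in control brain, and to 41.1 FPKM in NTD spine against 132 in control spine. Apoa1 and Apoa2 were at 0 in NTD brain, and Afp, Ttr and Apoa2 in control brain. The part of these cells in the differences among the mitosis genes was not tested.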

How the data were processed

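RNA-seq was done on 4 samples, 1 each of NTD brain, control brain, NTD spine and control spine, grouped by their titles. The authors deposited FPKM, with 1 column per sample. HISAT2 2.0.1 and the mm10 build are named in the submitters' processing notes. The counting program and its annotation, strand setting and filters were not given in the sources used here. FPKM is scaled to a library total, so a gene's value depends on all others.

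Identifiers were matched to GENCODE M21 (28698 of 28765). Multiplied by union exon length, the FPKM values moved in steps of 1 read: 28298 genes (98.6% of those matched) were whole to within 0.01 reads in all 4 libraries, all 35 mitosis genes among them. The step gave library totals of 16470311 (NTD brain), 16911677 (control brain), 16605133 (NTD spine) and 16272101 reads (control spine). Genes averaging 1 FPKM or more were compared by log2 ratios of (FPKM + 1), and calls were made at a log2 ratio of 0.32 and at 2-fold. A fold in the text divides recovered reads per library total, with exact (Clopper-Pearson) conditional binomial 95% intervals, which cover counting error only; PCR copies are not independent molecules. Of the 12940 genes compared, 12721 had such an interval.

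Block tests used limma 3.58.1 (R 4.3.3) with eBayes and trend on log2(FPKM + 1), with Benjamini-Hochberg adjustment over all genes compared. Alternatives were pseudocounts of 0.1 and 5, no filter, a filter of 5 FPKM, rescaling by the median ratio, protein-coding genes only, an adjustment that takes off the median of genes of like GC content and length (10 by 10 cells), eBayes without trend, and voom on recovered reads. The recovery of library totals, the counting intervals and the main limma fit were tried on simulated reads. Those reads had independent noise and no effect of GC content or litter. The GC and length adjustment, rescaling, voom, promoter search and copy search were not tried in this way. Copies were sought with blastn 2.17.0 in the GENCODE transcripts. Other calculations used Python 3.11.15.

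The mitosis genes and all lists were chosen with earlier results of these data known. All 35 were open to naming; of each other list, the 2 highest and 2 lowest genes in each NTD comparison, and members where a count was 5 or fewer.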

Additional observations from a re-analysis of the deposited data

Results flagged for a closer look

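In 8 mitosis genes the log2 ratio of (FPKM + 1), NTD over control, had one sign in brain and the other in spine, with 1 pair of libraries per tissue. The difference between the tissues was not tested. Higher in NTD brain and lower in NTD spine were Ccnb2 (0.014 in brain, -0.17 in spine), Aurka (0.036, -0.019), Kif2c (0.040, -0.035) and Nusap1 (0.096, -0.087). Lower in NTD brain and higher in NTD spine were Top2a (-0.013 in brain, 0.14 in spine), Kif4 (-0.11, 0.074), Ect2 (-0.022, 0.069) and Nek2 (-0.023, 0.22). Counting intervals in both tissues included 1 for Aurka, Kif2c and Ect2. With libraries rescaled by the median ratio, the brain ratio changed sign for Top2a, Ect2 and Nek2, and the spine ratio for Aurka and Kif2c. With adjustment for GC content and length, Ccnb2 was lower in NTD in both tissues, and Aurka, Kif2c and Nek2 were higher in both, so 4 of the 8 kept opposite signs.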

How the results depend on the processing

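No paired analysis was possible because each group has 1 library; tissue or condition served as the block instead. The 4 medians and the counts of calls were recomputed under 7 alternatives, and the block tests under 9. No median and no called gene turned direction; among genes without a call, up to 6 per comparison changed sign, under rescaling or the GC adjustment. Rescaled by the median ratio, the median over the 35 was 0.069 in NTD brain over control brain and 0.096 in NTD spine over control spine, with 24 and 23 genes higher; of all compared genes, 49.4% and 48.9% were then higher. Adjusted for GC content and length, the median was 0.016 in NTD spine over control spine and 0.021 in control brain over control spine.

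At a log2 ratio of 0.32, 0 genes were lower in NTD brain with a pseudocount of 5, with rescaling or with the GC adjustment, and 2 were higher in NTD spine with a pseudocount of 0.1 or rescaling (Bub1 and Kif20a) or with the GC adjustment (Plk1 and Kif20a, Bub1 no longer). Control brain over control spine gave 0 higher and 0 lower with a pseudocount of 5. With a filter of 5 FPKM, which drops Nek2, 0 were lower in brain in either condition.

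In limma, NTD against control gave 1 higher and 1 lower among protein-coding genes only, and 5 higher and 3 lower with voom. Brain against spine gave 2 higher (Cdc25b and Nusap1) with a pseudocount of 5, a filter of 5 FPKM, rescaling, protein-coding genes only or voom, 0 higher with no filter or without trend, and 1 lower (Nek2) among protein-coding genes only or with voom. The cause was not tested. For single genes, 1557 values were counted as the same and 28 as moved. The filters and the protein-coding subset leave the log2 ratio of a gene unchanged, so those values were the same by construction. In limma, a value with the same sign and the same call was counted as the same, whatever its size. Among the medians and counts over the mitosis genes, 121 values were the same and 27 moved. A value counted as the same may still have changed sign, or gained or lost a call on its log2 ratio. In limma, 17 values came past the adjusted p threshold and 2 no longer passed it. Depth limits the counting error only, which is widest for Nek2, the gene with the fewest reads.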

Other observations

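A gene model without a known role, Gm44985, overlaps 7.09% of the Plk1 exon bases on the opposite strand; it was picked out after its values were seen. It had 2.93 FPKM in NTD brain against 1.16 in control brain, and 2.19 FPKM in NTD spine against 0.726 in control spine. The strand setting is not known, and what the values mean was not tested. Other opposite-strand overlaps covered 15.1% of the Kif4 exon bases (Pdzd11), 12.7% of Cdc25c (Gm3550) and 11.1% of Prc1 (Rccd1).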
